A study of Homo sapiens with 18 samples.

Results

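A set of HSP70 genes, most of them for chaperones of the cytosol and nucleus, was followed through heat shock and recovery in SW620 cells, a human colon cancer line, with and without silencing of Lonp1. The members were taken by symbol: HSPA1A, HSPA1B, HSPA1L, HSPA2, HSPA6, HSPA7, HSPA8, HSPA13 and HSPA14, which is 9 of the 26485 gene symbols of the count table, and all 9 had a row. Of these, HSPA13 encodes a microsomal protein and HSPA7 is annotated as a pseudogene. The cells had been transfected with a scramble siRNA or with siRNA against Lonp1 (siLonp1), a mitochondrial protease that the study also found in the nucleus. Ctrl scramble and Ctrl siLonp1 cells stayed at 37 °C, HS scramble and HS siLonp1 cells spent 1 h at 42 °C, and HS+REC scramble and HS+REC siLonp1 cells spent 1 h at 42 °C followed by 1 h of recovery at 37 °C. Each of the 6 groups has 3 libraries, which makes 18, and the study describes its 3 replicates as independent biological ones. All groups come from 1 cell line and all received an siRNA, so no untransfected cells are in the comparison. The study asked whether Lonp1 changes the transcription of heat shock genes that depend on heat shock factor 1.

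HSP70 proteins bind unfolded stretches of other proteins and release them in a cycle of ATP hydrolysis. J-domain proteins bring substrates and start the hydrolysis, and nucleotide exchange factors such as the HSP110 and BAG proteins end the cycle. Under heat, heat shock factor 1 forms trimers that bind inverted repeats of the short unit GAA in front of its target genes, and the inducible HSP70 genes are the classical targets.

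Each library held between 30815860 and 47279297 counts (median 40847024.5). Levels are in CPM, the usual counts scaled to a common library size, here with edgeR's TMM factors. LONP1 had between 196.6 and 233.1 CPM in the 9 scramble libraries, and between 11.5 and 28.9 CPM in the 9 siLonp1 libraries. The silencing was thus seen in each siLonp1 library. Its depth differed, with 19.4 to 22.5 CPM left in Ctrl siLonp1, 11.5 to 11.8 in HS siLonp1 and 25.6 to 28.9 in HS+REC siLonp1. The part of these unequal levels in the siLonp1 comparisons was not tested. Of 8 colon epithelial markers, 7 had at least 1 CPM in all libraries, and KRT20 stayed below that in part of them. Of the 4 fibroblast markers, COL1A1 alone reached 1 CPM in every library. The summed fibroblast list ran from 8.98 to 13.7 CPM in the Ctrl libraries, from 15.0 to 21.0 CPM in the HS libraries and from 30.7 to 37.1 CPM in the HS+REC libraries. COL1A1 made up most of that sum, whereas COL1A2 did not exceed 0.0511 CPM and DCN did not exceed 0.163 CPM in any library. Its part in the HSP70 results was not tested. The 3 leukocyte markers, nearly all CD68, summed to between 10.7 and 12.8 CPM in scramble libraries and between 13.1 and 18.1 CPM in siLonp1 libraries. The part of that difference in the siLonp1 comparisons was not tested. The 3 endothelial markers summed to between 0.631 and 1.53 CPM.

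The sequences upstream of the RefSeq starts are shown first, because the members differ both in these letters and in their heat response. In the GENCODE v44 annotation of hg38, HSPA1L (chr6:31809619-31815283, minus strand), HSPA1A (chr6:31815543-31817946, plus strand) and HSPA1B (chr6:31827738-31830254, plus strand) lie side by side. HSPA1L and HSPA1A point away from each other with 259 bases between their starts. HSPA6 (chr1:161524540-161526894, plus strand) and HSPA7 (chr1:161606291-161608217, plus strand, annotated as an unprocessed pseudogene) lie on chromosome 1 with 79396 bases between them. HSPA8 (chr11:123057489-123063230, minus strand), HSPA2 (chr14:64535905-64546173, plus strand), HSPA13 (chr21:14371115-14383484, minus strand) and HSPA14 (chr10:14838306-14871741, plus strand) lie on chromosomes without another member. The annotation gives HSPA1A, HSPA1B and HSPA6 a single exon, HSPA1L 2 exons, HSPA8 9 exons and HSPA14 14 exons.

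The 250 bases upstream of the RefSeq start (GRCh38.p14) were read for 7 of the 9 members, from HSPA1A to HSPA13. For HSPA2, HSPA8 and HSPA13 the GENCODE gene begins further upstream than the RefSeq start, so that these windows lie inside the gene range given above. The inverted repeat of the heat shock element was searched on both strands as GAANNTTC or TTCNNGAA, which is 2 units, and as 3 units where a match of one form overlaps a match of the other by 3 bases. The 3 windows below belong to the genes with the largest heat response among these 7, with each match in capitals.
HSPA1A, chr6:31815293-31815542, plus strand: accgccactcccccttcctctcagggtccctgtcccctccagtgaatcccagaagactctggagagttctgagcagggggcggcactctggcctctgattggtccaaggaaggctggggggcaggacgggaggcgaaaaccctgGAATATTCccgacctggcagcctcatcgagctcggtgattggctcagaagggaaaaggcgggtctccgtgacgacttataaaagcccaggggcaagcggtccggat
HSPA1B, chr6:31827488-31827737, plus strand: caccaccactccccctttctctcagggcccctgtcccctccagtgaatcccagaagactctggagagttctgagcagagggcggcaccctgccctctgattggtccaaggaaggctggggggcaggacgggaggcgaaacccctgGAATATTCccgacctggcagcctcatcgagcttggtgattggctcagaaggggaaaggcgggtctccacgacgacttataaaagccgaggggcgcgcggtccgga
HSPA6, chr1:161524290-161524539, plus strand: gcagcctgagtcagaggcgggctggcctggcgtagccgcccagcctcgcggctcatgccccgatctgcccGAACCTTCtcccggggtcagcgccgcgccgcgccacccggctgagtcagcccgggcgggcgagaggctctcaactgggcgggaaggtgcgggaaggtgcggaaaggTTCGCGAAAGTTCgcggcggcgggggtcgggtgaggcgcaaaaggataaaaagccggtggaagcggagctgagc

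The HSPA1A and HSPA1B windows were identical in 93.6% of their alignment columns and held the same 2-unit match, at -106 to -99 from the start in HSPA1A and at -105 to -98 in HSPA1B. The HSPA1L window (chr6:31815284-31815533, minus strand) is nearly the same stretch of DNA as that of HSPA1A read on the other strand, and its match at -161 to -154 is the HSPA1A match. HSPA6 held a 2-unit match at -180 to -173 and a 3-unit match at -74 to -62.

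HSPA8, the member with the highest level at 37 °C, held a pair of 3-unit matches, the same length as the one in HSPA6, and they are shown with 8 bases on each side for comparison with it.
HSPA8 at -230 to -218, chr11:123062346-123062374, minus strand: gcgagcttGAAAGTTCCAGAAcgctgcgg
HSPA8 at -55 to -43, chr11:123062171-123062199, minus strand: cgggccccTTCTGGAAGGTTCtaagatag

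The windows of HSPA2 and HSPA13 held no match, which says only that these letters are not in these 250 bases. Of 35116 upstream windows in the RefSeq table, 11.6% held a 2-unit match and 0.441% held a 3-unit match, against 5 and 2 of the 7 member windows. The matches are a description of sequence, and no binding was measured here.

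**Figure D1:**
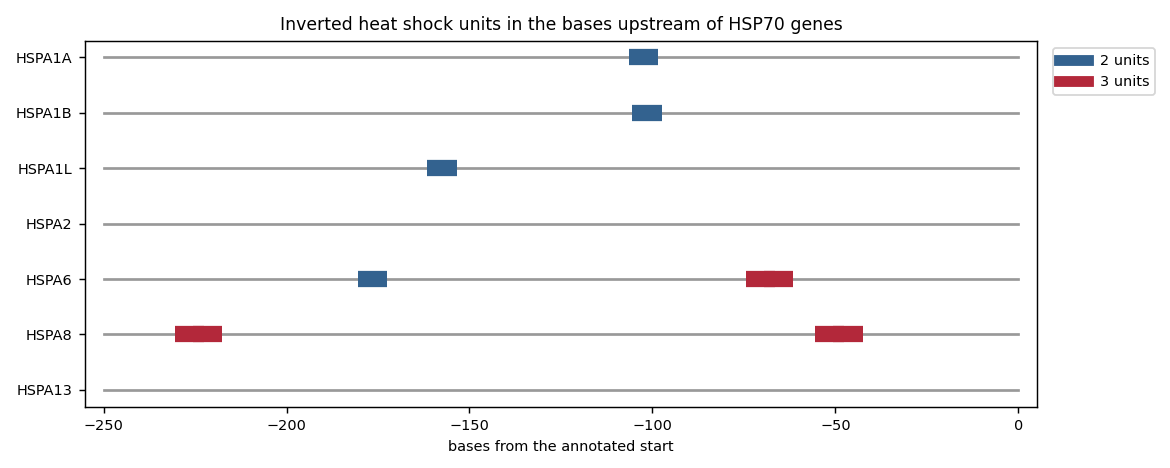
Positions of inverted heat shock units in the 250 bases upstream of the RefSeq start of 7 HSP70 genes. The horizontal axis is the distance from the start in bases, grey lines are the windows, blue blocks are 2-unit matches and red blocks are 3-unit matches. Blocks appear in 5 genes, red ones in HSPA6 and HSPA8 only, and none in HSPA2 and HSPA13.

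The near-identity of some members limits how their reads can be assigned. Of the 100-base windows in the exon of HSPA1A, 72.4% occur again in HSPA1B, and 68.9% of the HSPA1B windows occur in HSPA1A. Of the HSPA6 windows, 29.5% occur in HSPA7, and 34.4% of the HSPA7 windows occur in HSPA6. HSPA1L, HSPA2, HSPA13 and HSPA14 had 0 repeated windows, and HSPA8 had 5.79%. Reads with several locations could be split or dropped in the authors' counting, whose setting for them is not given in the sources used here, so the division between HSPA1A and HSPA1B and between HSPA6 and HSPA7 is uncertain. Genes that overlap on the genome could add to this. The overlaps below are from GENCODE v44, whereas the study counted UCSC annotated genes, and their effect on these counts was not tested. Of the 2517 exon bases of HSPA1B, 920 are also exon of an unnamed lncRNA gene on the same strand. HSPA14 shares 318 of its 1762 exon bases with MSANTD7 on the same strand and 36 with CDNF on the opposite strand, and the strand setting is not given either. HSPA6 lies inside an unnamed lncRNA gene on the same strand and HSPA7 inside an unnamed protein-coding gene on the opposite strand, with 0 exon bases shared.

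At 37 °C the family was dominated by HSPA8, the constitutive HSC70. Per kilobase of exon (CPM per kb, all annotated exons merged), the mean level in Ctrl scramble was 620.2 ± 15.2 (SD, n = 3) for HSPA8 and 37.5 ± 0.731 for HSPA14, an HSP70 that works at the ribosome. HSPA13, a microsomal HSP70-like protein rather than a cytosolic one, stood at 10.9 ± 0.715 CPM per kb, and HSPA1B at 10.5 ± 0.234 CPM per kb, a difference within their spread. HSPA1A followed at 5.93 ± 0.409 CPM per kb, HSPA2, best known from testis, at 3.57 ± 0.225 CPM per kb, and the strictly inducible HSPA6 at 1.11 ± 0.286 CPM per kb. HSPA1L, also mainly a testis gene, was at 0.315 ± 0.0225 CPM per kb. HSPA7 had 0, 1 and 3 counts in the Ctrl scramble libraries and 2, 0 and 0 counts in the Ctrl siLonp1 libraries. When the length of the canonical transcript was used instead, HSPA8 rose to 1328 CPM per kb, HSPA14 to 53.2 and HSPA2 to 7.86, which put HSPA2 above HSPA1A (5.94 CPM per kb) in Ctrl scramble.

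After 1 h at 42 °C the order was different. In HS scramble, HSPA8 was at 1390 ± 125 CPM per kb, HSPA1B at 1089 ± 39.4, HSPA1A at 822.0 ± 35.4 and HSPA6 at 617.0 ± 0.389 CPM per kb. HSPA14 was at 48.9 ± 1.91 CPM per kb, and the remaining members were between 4.10 and 8.38 CPM per kb, with HSPA13 (8.38 ± 0.387), HSPA1L (7.51 ± 0.315) and HSPA7 (6.87 ± 1.15) close to each other. In HS+REC scramble HSPA1A (1419 ± 122 CPM per kb) and HSPA1B (1396 ± 162 CPM per kb) did not differ beyond their spread, below HSPA8 at 2038 ± 192 CPM per kb, and HSPA6 was down to 258.1 ± 62.7 CPM per kb. By the length of the canonical transcript, HSPA8 was at 2977 CPM per kb in HS scramble and 4364 in HS+REC scramble, and HSPA2 at 9.03 CPM per kb in HS scramble stood above HSPA13 (8.83) rather than below it.

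Together the 9 genes took 0.338% ± 0.00709 (SD, n = 3) of all counts in Ctrl scramble, 1.36% ± 0.0362 in HS scramble and 1.76% ± 0.149 in HS+REC scramble. In the siLonp1 arm they took 0.356% ± 0.00902, 1.56% ± 0.0501 and 1.83% ± 0.224. In both arms each HS library was above each Ctrl library. HS+REC scramble libraries (from 1.59% to 1.87%) lay above HS scramble libraries (from 1.32% to 1.39%), and the siLonp1 ranges of HS (from 1.505% to 1.593%) and HS+REC (from 1.593% to 2.04%) met almost end to end.

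**Figure D2:**
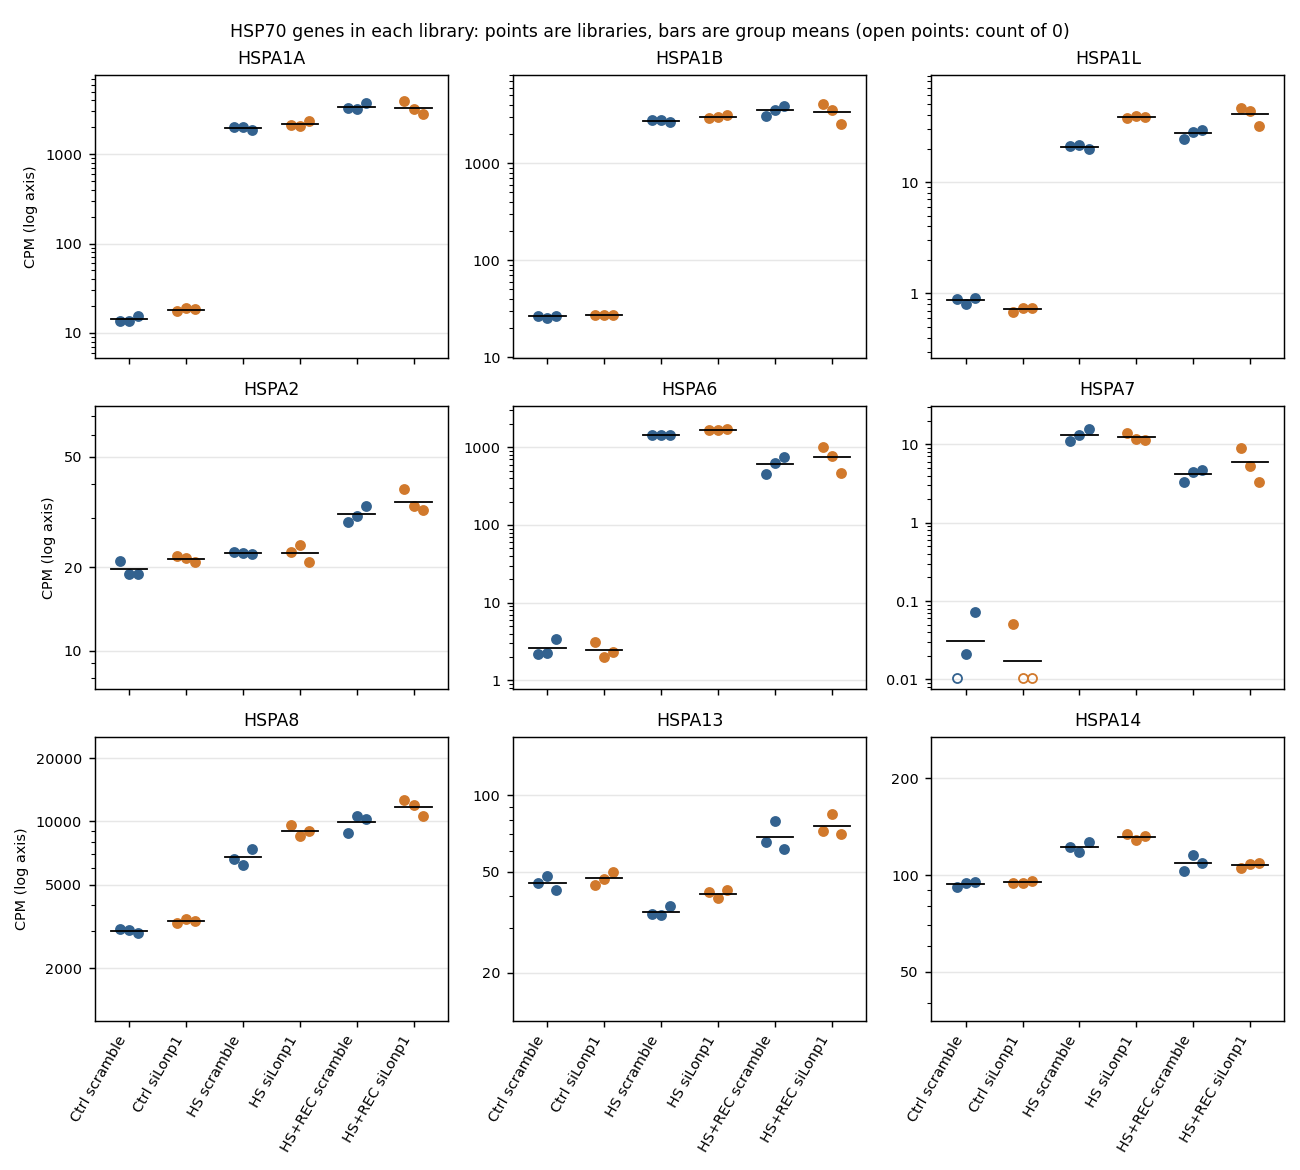
CPM (log axis, a separate scale in each panel) of the 9 HSP70 genes in each of the 18 libraries, with scramble in blue and siLonp1 in orange. Points are libraries, black bars are group means, and open points stand for a count of 0, drawn below the lowest measured value. HSPA1A, HSPA1B, HSPA1L, HSPA6, HSPA7 and HSPA8 stand higher in every heated or recovered library than in any Ctrl library.

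Heat shock itself was compared first, as HS against Ctrl within each siRNA arm. HSPA1A, HSPA1B, HSPA1L, HSPA6, HSPA7 and HSPA8 rose in both arms, past an FDR of 0.05 and a fold change above 2 in edgeR's quasi-likelihood test with Benjamini-Hochberg adjustment over the 12832 genes tested. These are 6 of 9 members raised and 0 lowered in each arm. Over all genes tested, 2.94% were raised and 0.366% lowered in scramble, and 3.42% were raised and 1.15% lowered in siLonp1. All 9 members passed the filter on low counts, but HSPA1L and HSPA7 only through their heated libraries, so that their call was in part fixed by the filter. Without these genes, 4 of 7 members were raised and 0 lowered in each arm, with a median log2 fold change of 1.16 in scramble and 1.43 in siLonp1, beside -0.01 and 0.00 for all genes tested. In bulk RNA a change in all cells and a larger change in some of them cannot be told apart.

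HSPA6 encodes HSP70B', an HSP70 known for very low expression outside stress. It had 2.21, 2.23 and 3.39 CPM in the Ctrl scramble libraries, 1452, 1454 and 1454 CPM in HS scramble, and 449.9, 630.9 and 742.5 CPM in HS+REC scramble. In the siLonp1 arm it had 3.13, 2.002 and 2.32 CPM in Ctrl, 1677, 1646 and 1705 CPM in HS, and 1007, 767.3 and 471.9 CPM in HS+REC. All HS libraries were above all HS+REC libraries and these above all Ctrl libraries, in both arms. The log2 fold change of HS against Ctrl was 9.12 (SE 0.27, adjusted p = 5.2e-18 in edgeR's test) in scramble and 9.40 (SE 0.27, adjusted p = 2.8e-18) in siLonp1. HSPA6 had the largest heat change of the members apart from HSPA7, whose Ctrl counts are near 0.

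HSPA7, on the same chromosome as HSPA6, shares part of its sequence. It had 490, 599 and 489 counts in HS scramble, 542, 444 and 447 in HS siLonp1, 144, 179 and 221 in HS+REC scramble, and 380, 211 and 130 in HS+REC siLonp1. No heated library overlapped a Ctrl library. From the summed counts, the ratio of HS to Ctrl was 423.8 in scramble, with a 95% counting interval from 165.2 to 1557, and 730.7 in siLonp1 (from 201.9 to 6040). These ratios rest on 4 and 2 Ctrl counts. Without Ctrl scramble replicate 3 the scramble ratio was 1154, and without Ctrl siLonp1 replicate 1, which leaves 0 Ctrl counts, HSPA7 was at least 326.2-fold higher in HS siLonp1, taken against a floor of 3 counts over the group. Without Ctrl siLonp1 replicate 2 the ratio was 482.1. HSPA7 made up between 0.631% and 1.05% of the summed counts of HSPA6 and HSPA7 in all HS and HS+REC libraries. Whether its counts are transcripts of HSPA7 or reads of HSPA6 was not tested.

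HSPA1A and HSPA1B encode the major inducible HSP70, with nearly the same protein. HSPA1A had 13.7, 13.7 and 15.4 CPM in the Ctrl scramble libraries, 2031, 2020 and 1878 CPM in HS scramble and 3270, 3217 and 3750 CPM in HS+REC scramble. In the siLonp1 arm it had 17.6, 18.8 and 18.3 CPM in Ctrl, 2124, 2083 and 2348 CPM in HS and 3888, 3210 and 2795 CPM in HS+REC. HSPA1A was thus highest in the recovered libraries, which did not overlap with HS in either arm. Its log2 fold change of HS against Ctrl was 7.11 (SE 0.11, adjusted p = 6.7e-23 in edgeR's test) in scramble and 6.90 (SE 0.11, adjusted p = 1.0e-22) in siLonp1.

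HSPA1B had 26.6, 25.7 and 26.8 CPM in the Ctrl scramble libraries, 2815, 2782 and 2629 CPM in HS scramble and 3091, 3549 and 3904 CPM in HS+REC scramble. In the siLonp1 arm it had 27.1, 27.1 and 27.2 CPM in Ctrl, 2910, 3008 and 3130 CPM in HS and 4089, 3486 and 2518 CPM in HS+REC. In scramble all recovered libraries lay above all HS libraries, whereas in siLonp1 the lowest recovered library lay below the HS range. The log2 fold change of HS against Ctrl was 6.70 (SE 0.14) in scramble and 6.80 (SE 0.14) in siLonp1, with adjusted p = 3.8e-21 and 3.1e-21 in edgeR's test. With both genes summed, it was 6.86 in scramble and 6.84 in siLonp1.

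The balance within the pair moved with the conditions. HSPA1A held 35.1% ± 1.25 (SD, n = 3) of the pair's counts in Ctrl scramble, 41.9% ± 0.198 in HS scramble and 49.3% ± 1.95 in HS+REC scramble, and these ranges did not overlap. In siLonp1 the shares were 40.2% ± 0.799, 42.0% ± 0.993 and 49.8% ± 2.50, where the Ctrl and HS ranges overlapped narrowly and the HS+REC range lay above both. How reads that match both genes entered these shares is not given in the sources used here.

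**Figure D3:**
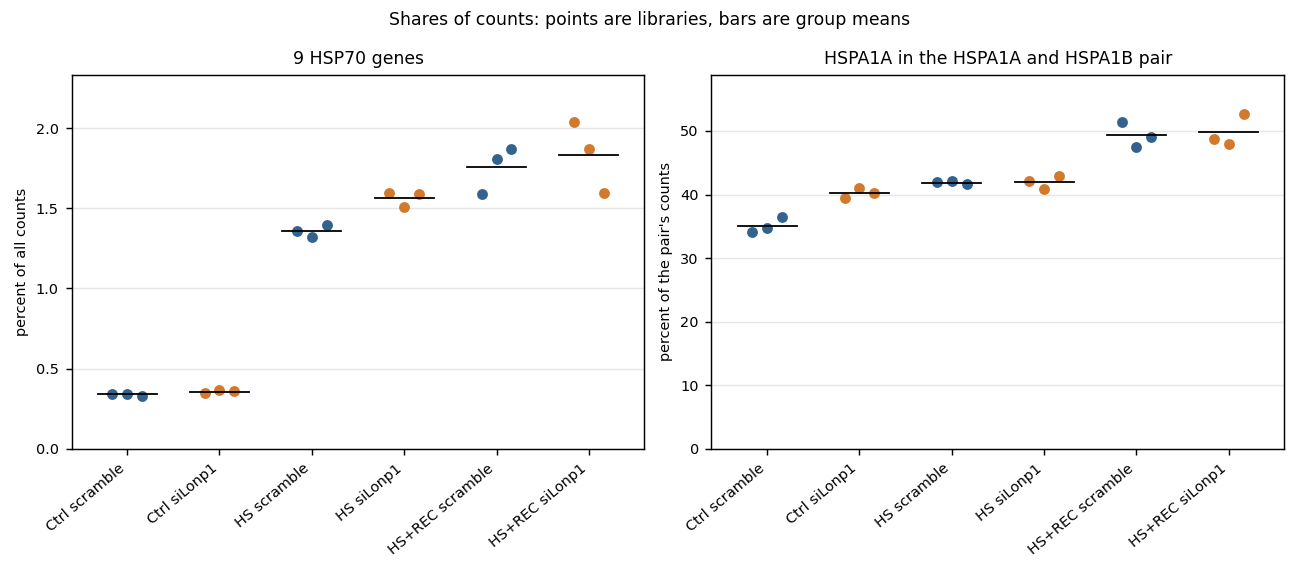
Shares of counts in each library, with scramble in blue, siLonp1 in orange and black bars for group means. The left panel gives the percent of all counts in the 9 HSP70 genes, which lies between 0.330% and 0.363% in Ctrl and between 1.59% and 2.04% in HS+REC. The right panel gives HSPA1A as a percent of HSPA1A with HSPA1B, between 34.1% and 52.6%.

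HSPA1L, which faces HSPA1A across their common upstream stretch, rose as well from a very low level. It had 0.900, 0.800 and 0.913 CPM in the Ctrl scramble libraries, 20.9, 21.5 and 19.8 CPM in HS scramble and 24.4, 28.3 and 29.2 CPM in HS+REC scramble. In siLonp1 it had 0.687, 0.741 and 0.741 CPM in Ctrl, 37.3, 38.8 and 38.4 CPM in HS and 46.1, 43.7 and 31.9 CPM in HS+REC. The siLonp1 libraries lay below the scramble libraries in Ctrl and above them in HS and in HS+REC, without overlap. The log2 fold change of HS against Ctrl was 4.58 (SE 0.15, adjusted p = 2.6e-17 in edgeR's test) in scramble and 5.72 (SE 0.15, adjusted p = 4.6e-19) in siLonp1. The gene passed the filter on low counts only through its heated libraries, so this comparison was in part fixed by the filter.

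HSPA8 rose by far less in proportion, from a high base. It had 3067, 3030 and 2925 CPM in the Ctrl scramble libraries, 6605, 6212 and 7405 CPM in HS scramble and 8830, 10595 and 10218 CPM in HS+REC scramble. In siLonp1 it had 3277, 3411 and 3349 CPM in Ctrl, 9574, 8546 and 8955 CPM in HS and 12572, 11916 and 10609 CPM in HS+REC. The groups followed each other from Ctrl to HS to HS+REC in each arm without overlap. HS against Ctrl gave a log2 fold change of 1.16 (SE 0.07, adjusted p = 1.1e-11 in edgeR's test) in scramble and 1.43 (SE 0.07, adjusted p = 2.4e-13) in siLonp1.

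The remaining 3 members stayed under 2-fold. At an FDR of 0.05 with no fold limit, 8 of the 9 members were higher and 1 lower in HS in scramble, beside 18.6% and 17.3% of all genes tested. In siLonp1, 7 were higher and 0 lower, beside 20.2% and 22.1%. Without HSPA1L and HSPA7, which passed the filter only through heated libraries, 6 of 7 were higher and 1 lower in scramble. In siLonp1 it was then 5 higher and 0 lower. HSPA14 had 91.7, 94.6 and 94.99 CPM in the Ctrl scramble libraries, against 122.4, 117.6 and 127.1 CPM in HS scramble, without overlap. Its log2 fold change of HS against Ctrl was 0.38 (adjusted p = 4.3e-06 in edgeR's test) in scramble and 0.47 (adjusted p = 1.3e-07) in siLonp1. HSPA13 had 45.0, 48.1 and 42.2 CPM in Ctrl scramble, against 34.0, 33.7 and 36.7 CPM in HS scramble, also without overlap, and was the only member with a lower mean in HS than in Ctrl in both arms. Its log2 fold change was -0.37 (adjusted p = 0.0015) in scramble and -0.20 (adjusted p = 0.068, above the limit) in siLonp1. HSPA2 moved by 0.20 (adjusted p = 0.042) in scramble and by 0.07 (adjusted p = 0.48) on the log2 scale in siLonp1, where its Ctrl and HS libraries overlapped.

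After recovery all 9 members stood above Ctrl at an FDR of 0.05 in both arms, beside 21.8% above and 20.5% below of all genes tested in scramble and 24.6% and 26.6% in siLonp1. The same 6 passed the 2-fold limit. That is 6 of 9 raised and 0 lowered, beside 3.78% raised and 0.678% lowered of all genes tested in scramble and 4.51% raised and 1.2% lowered in siLonp1. Without HSPA1L and HSPA7 it is 4 of 7 raised past 2-fold, and 7 of 7 above Ctrl with no fold limit, in each arm. HSPA1A was 239.3-fold above Ctrl in scramble (log2 fold change 7.90, SE 0.12) and 180.6-fold in siLonp1 (7.50, SE 0.12). HSPA8 was 3.29-fold above Ctrl in scramble (log2 fold change 1.72, SE 0.07) and 3.50-fold in siLonp1 (1.81, SE 0.07). HSPA2 (log2 fold change 0.66 in scramble and 0.68 in siLonp1) and HSPA13 (0.60 and 0.68), both near or below their Ctrl level in HS, had risen by then.

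HS+REC was then compared with HS. The HS+REC cells differ by the return to 37 °C and by 1 h more since the start of heat. No group stayed at 42 °C for that added hour, so these differences cannot be told apart. HSPA6 and HSPA7 fell past 2-fold in both arms, and no member rose past 2-fold, which makes 2 of 9 lowered and 0 raised. Over all genes tested 1.06% were raised and 0.842% lowered in scramble, and 1.83% raised and 0.74% lowered in siLonp1. HSPA6 fell by 1.26 on the log2 scale (SE 0.18, adjusted p = 7.9e-06 in edgeR's test) in scramble and by 1.16 (SE 0.18, adjusted p = 1.6e-05) in siLonp1. After 1 h of recovery it was thus at 41.8% of its HS level in scramble and at 44.7% in siLonp1. HSPA7 fell by 1.66 (SE 0.22) in scramble and by 1.05 (SE 0.21) in siLonp1 on the same scale, with adjusted p = 3.2e-06 and 0.00044. Without HS+REC siLonp1 replicate 3, neither gene passed 2-fold in siLonp1 (log2 fold change -0.92 for HSPA6 and -0.77 for HSPA7), and HSPA7 did not pass without HS siLonp1 replicate 1 (-0.95) or HS+REC siLonp1 replicate 2 (-0.98).

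At an FDR of 0.05 with no fold limit, 6 members were higher and 3 lower in HS+REC than in HS in scramble, beside 14.2% raised and 12.7% lowered of all genes tested. In siLonp1, 4 were higher and 3 lower, beside 16.3% and 15.6%. HSPA13 had 65.6, 79.0 and 61.1 CPM in HS+REC scramble and 72.0, 84.4 and 70.1 CPM in HS+REC siLonp1, all above the HS libraries. Its log2 fold change of HS+REC against HS, 0.98 (SE 0.09, adjusted p = 5.9e-09 in edgeR's test) in scramble and 0.88 (SE 0.09, adjusted p = 1.9e-08) in siLonp1, was the largest rise of the members. It passed 2-fold in scramble without HS+REC scramble replicate 1 (log2 fold change 1.009) or replicate 3 (1.06).

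HSPA1A rose further by 0.79 (SE 0.09) in scramble and 0.59 (SE 0.09) in siLonp1 on the log2 scale, with adjusted p = 2.0e-07 and 7.5e-06. HSPA8 rose further by 0.55 and 0.37, and HSPA2 by 0.46 and 0.61, in scramble and siLonp1 in turn, past the FDR limit in both. HSPA1B and HSPA1L passed it in scramble (log2 fold change 0.36 and 0.39, adjusted p = 0.013 and 0.0037). In siLonp1 their log2 fold changes of 0.16 (95% interval from -0.06 to 0.38) and 0.09 (from -0.11 to 0.28) did not pass. HSPA14 fell by 0.17 and 0.30 on the log2 scale, and was still above Ctrl. The recovery changes of HSPA6 and HSPA1A thus had opposite signs in both arms, although HSPA1A was 138.6-fold and HSPA6 558.3-fold above Ctrl in HS scramble.

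**Figure D4:**
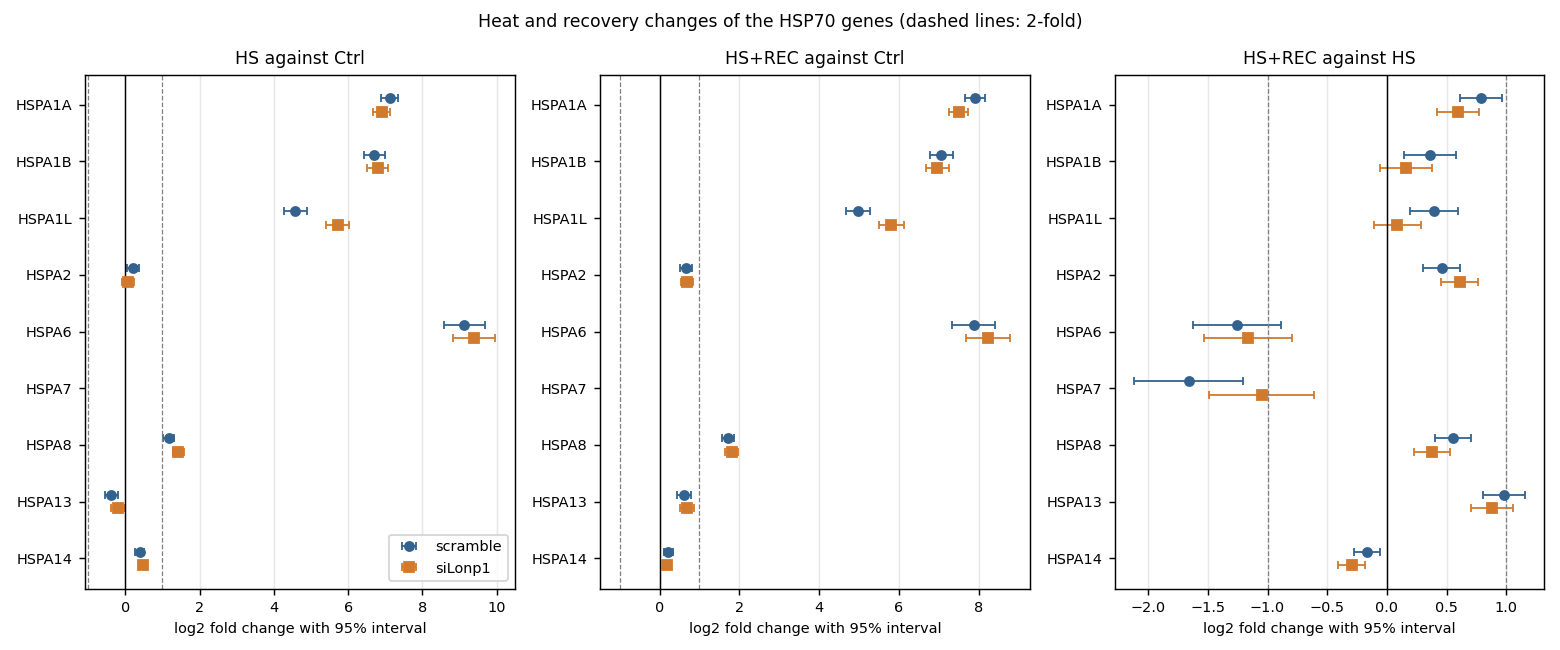
Log2 fold changes with 95% intervals of the 9 HSP70 genes for HS against Ctrl, HS+REC against Ctrl and HS+REC against HS, with scramble as blue circles and siLonp1 as orange squares, and with HSPA7 in the right panel only because of its low Ctrl counts. Dashed lines mark 2-fold. In the right panel HSPA6 and HSPA7 lie past the lower dashed line and no gene lies past the upper one.

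HSPA6 and HSPA1B spread more among the recovered libraries than among the HS libraries. The coefficient of variation of HSPA6 was 24.3% in HS+REC scramble and 35.8% in HS+REC siLonp1, against 0.0630% and 1.76% in the HS groups, and it was 25.8% and 23.4% in the Ctrl groups, at a few CPM. For HSPA1B it was 11.6% and 23.6% in the HS+REC groups, against 3.62% and 3.64% in the HS groups. All genes together also spread more in these groups. Over genes with a mean of at least 20 counts, the chi-square per degree of freedom between libraries was 20.8 and 23.7 in the HS+REC groups, 13.4 and 11.0 in the HS groups and 5.61 and 8.21 in the Ctrl groups, in scramble and siLonp1 in turn. In HS+REC siLonp1, replicate 1 was the highest and replicate 3 the lowest for HSPA1A, HSPA1B, HSPA1L, HSPA2, HSPA6, HSPA7 and HSPA8. Between these libraries HSPA6 differed by 2.13-fold, HSPA7 by 2.72-fold and HSPA1B by 1.62-fold.

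The effect of Lonp1 silencing was then compared within each condition, where genes were called at an FDR of 0.05 without a fold limit. Of the 9 members, 1 was higher with siLonp1 at 37 °C (Ctrl), 3 were higher in HS and 2 in HS+REC, and 0 were lower. Over all genes tested 26.3% were higher and 22.9% lower in Ctrl, 28.1% higher and 26.7% lower in HS, and 26.8% higher and 27.3% lower in HS+REC. The members' count of higher genes was below that background in Ctrl and near it in HS. In HS+REC the count depended on single libraries. It was 5 without HS+REC siLonp1 replicate 3 (with HSPA2, HSPA6 and HSPA7 added), 4 without HS+REC scramble replicate 3 and 1 without HS+REC scramble replicate 1, and without HS+REC siLonp1 replicate 1 there were 2 higher and 2 lower (HSPA1A and HSPA1B).

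In HS, HSPA1L was higher by 0.88 on the log2 scale with siLonp1 (SE 0.10, adjusted p = 1.2e-07 in edgeR's test), which is 1.84-fold, with 3 of 3 libraries above all scramble libraries. HSPA8 was higher by 0.42 (SE 0.07, adjusted p = 4.2e-05), which is 1.34-fold, again with 3 of 3 libraries. HSPA13, with 41.5, 39.2 and 42.2 CPM in HS siLonp1, was higher by 0.24 (SE 0.09, adjusted p = 0.024). This call was lost when counts were scaled by library size only (0.14, adjusted p = 0.18). It was also lost when HS scramble replicate 1, HS scramble replicate 2, HS siLonp1 replicate 1 or HS siLonp1 replicate 3 was left out, with nearly the same difference (from 0.21 to 0.23, adjusted p from 0.057 to 0.078). In HS+REC, HSPA1L was higher by 0.57 (SE 0.10, adjusted p = 2.7e-05) and HSPA8 by 0.24 (SE 0.07, adjusted p = 0.0071), the latter not without HS+REC scramble replicate 1 (0.17, adjusted p = 0.063).

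HSPA1A, HSPA1B and HSPA6 were not called between the arms in HS. HSPA1A and HSPA1B in HS were higher with siLonp1 by 0.14 (95% interval from -0.03 to 0.32) and 0.14 (from -0.08 to 0.36) on the log2 scale, with adjusted p = 0.16 and 0.28. HSPA6 in HS was higher by 0.21 (from -0.16 to 0.57, adjusted p = 0.33), although its 3 siLonp1 libraries were all above the 3 scramble libraries. The test shares 1 estimate of spread per gene over all groups, and HSPA6 was called with only the groups compared (adjusted p = 0.0044) and without the filter on low counts (0.22, adjusted p = 0.036). In Ctrl, HSPA1A was higher by 0.36 (SE 0.10, adjusted p = 0.0054), but HSPA1A and HSPA1B summed gave 0.16 with adjusted p = 0.18.

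The difference between the arms was also tested directly, as the HS change in siLonp1 minus that in scramble. HSPA1L was the 1 member called, with a difference of 1.14 on the log2 scale (SE 0.26, adjusted p = 0.024 in edgeR's test), and 0 members were lower. Of all genes tested, 0.475% had a larger and 1.39% a smaller HS change in siLonp1. HSPA1L was below 1 CPM in every Ctrl library and passed the filter only through its heated libraries. The call was lost without any 1 of the Ctrl scramble replicates or without Ctrl siLonp1 replicate 1 or 2 (differences from 1.105 to 1.20, adjusted p from 0.055 to 0.079). For HSPA8 the difference was 0.27 (95% interval from 0.05 to 0.48, adjusted p = 0.20), for HSPA6 0.27 (from -0.49 to 1.04, adjusted p = 0.80) and for HSPA1A -0.21 (from -0.48 to 0.06, adjusted p = 0.48).

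For the change from HS to HS+REC, the arms differed in 0 members at an FDR of 0.05 in edgeR's test and in DESeq2, while 1 member, HSPA1L, had an unadjusted p under 0.05 in edgeR, as did 1518 of the 12832 genes tested, a like share. Its difference was -0.31, with adjusted p = 0.37 in edgeR's test. Of all genes tested, 1.09% had a higher and 0.288% a lower value of that difference. For HSPA6 the difference was 0.10 (95% interval from -0.42 to 0.61), an interval that spans both a smaller and a larger decline with siLonp1.

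**Figure D5:**
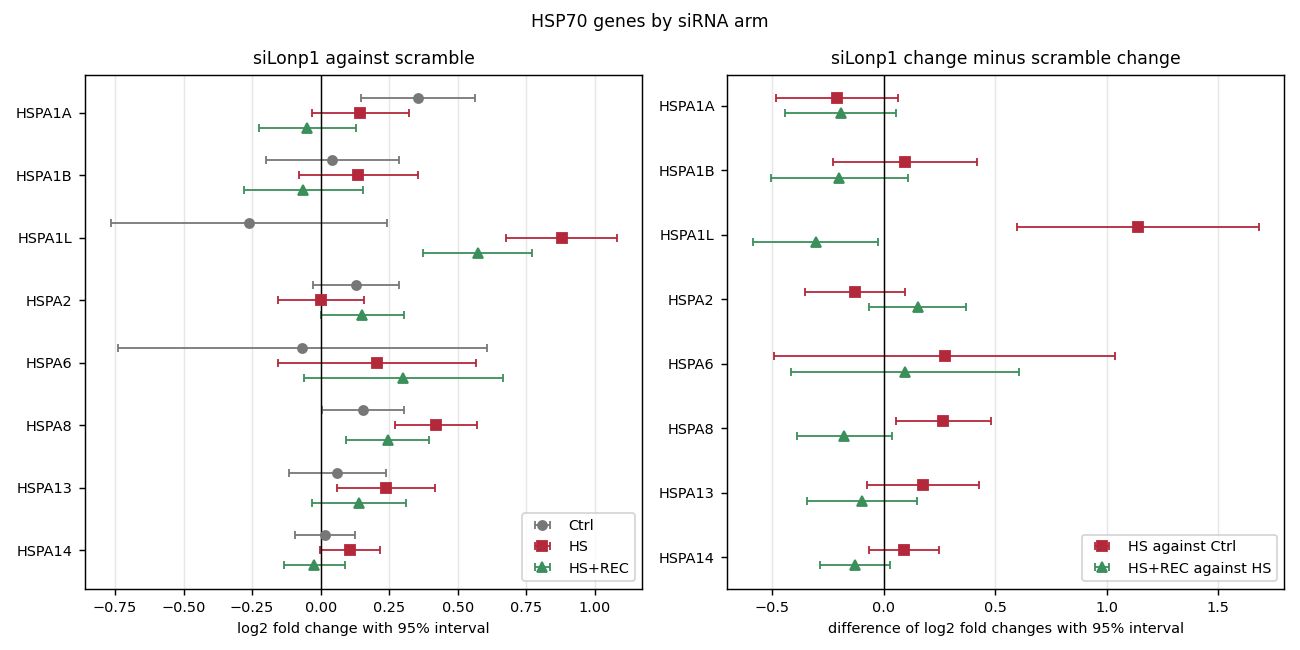
HSP70 genes by siRNA arm, without HSPA7, whose Ctrl counts are near 0. The left panel gives the log2 fold change of siLonp1 against scramble in Ctrl, HS and HS+REC, and the right panel the siLonp1 change minus the scramble change for HS against Ctrl and HS+REC against HS, all with 95% intervals. HSPA1L stands at 0.88 in HS on the left and at 1.14 on the right.

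Some partners of HSP70 rose in HS as well. Of 19 listed partners, all tested, 7 rose past 2-fold in HS in scramble and 9 in siLonp1, and 0 fell past 2-fold, beside 2.94% and 3.42% of all genes tested that rose. Their median log2 fold changes were 0.70 and 0.88, beside -0.01 and 0.00 for all genes tested. At an FDR of 0.05 with no fold limit, 12 were higher and 2 lower in each arm, beside 18.6% and 17.3% of all genes tested in scramble and 20.2% and 22.1% in siLonp1, and the 2 were BAG1 and BAG2, named after their values were seen. In HS+REC against Ctrl, 11 of the 19 rose past 2-fold in each arm and 0 fell past it, beside 3.78% and 4.51% of all genes tested that rose. Among the J-domain proteins, the HS change on the log2 scale in scramble and siLonp1 was 4.54 and 4.79 for DNAJB4, 4.53 and 4.91 for DNAJA4, 4.47 and 4.52 for DNAJB1, and 1.64 and 2.10 for DNAJA1. Among the exchange factors it was 5.37 and 5.73 for BAG3, 2.76 and 3.51 for HSPH1 and 1.18 and 1.83 for HSPA4L, and these 7 passed the limits in both arms. With siLonp1 in HS, 13 of the 19 were higher and 4 lower, beside 28.1% higher and 26.7% lower of all genes tested.

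The HSP70 relatives of other compartments, and the relative HSPA12A, did not pass the limits in HS. Of HSPA5 and HYOU1 of the endoplasmic reticulum, mitochondrial HSPA9, and HSPA12A, 0 were raised or lowered past 2-fold in HS in edgeR's test, and 3 had an unadjusted p under 0.05 in each arm, beside 5714 of the 12832 genes tested in scramble and 6296 in siLonp1. At an FDR of 0.05 with no fold limit, 2 of the 4 were lower in HS in scramble (HSPA5 and HYOU1) and 3 in siLonp1 (also HSPA9), and 0 were higher, beside 17.3% and 22.1% of all genes tested that were lower. HSPA12B was not tested because its counts were too low. HSPA5, the BiP chaperone, was lower by 0.47 in scramble and by 0.29 in siLonp1 on the log2 scale. Of 4 genes of heat shock factors and their binding protein, 0 passed the limits in HS in edgeR's test, with 0 in scramble and 1 in siLonp1 at an unadjusted p under 0.05, beside the same 5714 and 6296 of all genes tested. HSF1 had a mean of 88.6 CPM in the Ctrl scramble libraries, against 96.1 CPM in HS scramble, and HSF2 had 37.5 CPM in both. In siLonp1 HSF1 had 75.1 CPM in Ctrl and 71.6 CPM in HS, and HSF2 had 41.6 and 37.6 CPM. With siLonp1 in HS, 1 of the 4 was lower and 1 higher, beside 26.7% and 28.1% of all genes tested. HSF1, the factor itself, was lower by 0.43 on the log2 scale (adjusted p = 2.4e-05 in edgeR's test), and HSBP1, the binding protein, named after its values were seen, was higher by 0.43 (adjusted p = 4.4e-05). HSF2 then stood at 27.5 CPM in HS+REC scramble and 26.4 CPM in HS+REC siLonp1.

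The genes whose log2 CPM followed the members most closely over the 18 libraries are given as a description, since all share the same heat treatment and libraries. For HSPA1A the 5 highest Pearson correlations were with BAG3 (0.9985), HSPA1B (0.9982), SERPINH1 (0.9972), DNAJA4 (0.9967) and DNAJB1 (0.9963). For HSPA6 they were with HSPA7 (0.9957), KIAA0907 (0.9929), DDIT4 (0.9909), DNAJB4 (0.9888) and DNAJB1 (0.9882). For HSPA8 they were with DNAJA1 (0.997), HSP90AA1 (0.9956), CACYBP (0.995), RIOK2 (0.9941) and NXT2 (0.9927). The genes listed for HSPA1A and for HSPA6 have DNAJB1 in common, 1 of 5 in each list, and those listed for HSPA8 are in neither.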

How the data were processed

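RNA of SW620 cells was made into TruSeq stranded mRNA libraries. The authors aligned the reads to hg38 with STAR 2.7.3a and counted them over UCSC annotated genes with featureCounts. R 3.6.3 and edgeR are also named in the submitters' processing notes. The deposited values are raw counts per gene symbol. Read length, strand setting and the handling of multiply aligned reads are not given in the sources used here. Library totals ran from 30815860 to 47279297, and intervals on counts cover counting error only.

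A symbol was tested if 3 or more libraries had over 1 CPM, which held for 12832 of 26485, and 5740 had no count. With edgeR 4.0.16 in R 4.3.3, TMM factors (from 0.934 to 1.06) and 1 mean per group were fitted over the 18 libraries, with 12 residual degrees of freedom. CPM values are on the TMM scale. The quasi-likelihood test was used with Benjamini-Hochberg adjustment over all genes tested. For heat and recovery a call needs an FDR of 0.05 or less together with a fold change over 2, and for siLonp1 and interactions that FDR alone. The p-values measure the spread of libraries around their group means, pooled per gene over all 18 libraries. This spread was unequal: over all genes together, libraries differed more in the HS+REC groups than in the HS or Ctrl groups. A p-value therefore need not match the spread within the groups it compares. The steps were tested on simulated counts.

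The named genes were all 9 members, LONP1, HSF1, HSF2, the partners past the limits in HS in both arms, and the 5 genes most correlated with HSPA1A, HSPA6 and HSPA8 (log2 CPM, prior count 2). The members and lists were chosen with earlier results of these data known. Other relatives of HSP70 and cell markers (among them KRT20, COL1A1, COL1A2, DCN and CD68) were named as checks, those 5 markers after their values were seen. Upstream sequences came from a RefSeq table of GRCh38.p14, which matched 7 of the 9 members. Positions, lengths and overlaps came from GENCODE v44 on hg38, not from the UCSC annotation that was counted. Libraries with the same replicate number did not deviate together, with correlations from -0.379 to 0.462 in 27 pairs, so the main fit has no block. Alternatives were RLE factors, library size only, no filter, DESeq2 1.42.0, a replicate block, the other fold limit, near-identical pairs summed, only the groups compared, each library left out, and, added after seeing the data, the length of the canonical transcript.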

Additional observations from a re-analysis of the deposited data

Results flagged for a closer look

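HSPA1L was the 1 HSP70 gene whose HS change differed between the siRNA arms by a test of the difference itself. The log2 fold change of HS against Ctrl was larger by 1.14 in siLonp1 than in scramble (SE 0.26, adjusted p = 0.024 in edgeR's quasi-likelihood test). The call was lost without any 1 of the Ctrl scramble replicates or without Ctrl siLonp1 replicate 1 or 2 (adjusted p from 0.055 to 0.079). The difference itself stayed between 1.105 and 1.20 in these fits. HSPA1L passed the filter on low counts only through its heated libraries, and without that filter the difference was 1.14 with adjusted p = 0.00039. It rose from between 0.800 and 0.913 CPM to between 19.8 and 21.5 CPM in scramble, and from between 0.687 and 0.741 CPM to between 37.3 and 38.8 CPM in siLonp1. HSPA1A, which starts 259 bases away on the other strand, had a difference of -0.21 with adjusted p = 0.48. The part that the low Ctrl level of HSPA1L has in this difference was not tested.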

How the results depend on the processing

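Of 2521 recomputed log2 fold changes of the members, 2437 kept their direction and their side of the limits, 38 passed a limit they had not passed, 22 no longer passed it and 24 changed sign. Of 572 recomputed counts of called members, 548 stayed within 1.5 times. The causes were not tested. RLE factors, DESeq2 and the replicate block moved no count: the paired fit with the replicate block gave 6 members raised in HS and 0 lowered in each arm, 2 lowered in HS+REC against HS, and 1, 3 and 2 higher with siLonp1 in Ctrl, HS and HS+REC. The replicate numbers were not taken to pair the samples, since 6 of 18 libraries correlated best with their own number. Of 27 same-numbered pairs, 6 had a correlation over 0.1.

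Without a fold limit, 1 member was lowered in HS in scramble, and 6 (scramble) and 4 (siLonp1) were raised in HS+REC against HS. With a 2-fold limit, 0 were higher with siLonp1 in Ctrl, HS or HS+REC. Without the filter, 2 were higher with siLonp1 in Ctrl and 4 in HS+REC, with only the groups compared 2 in Ctrl, and with near-identical pairs summed 0 in Ctrl. With each library left out, the members raised in HS+REC against HS ranged from 0 to 1 in scramble and those lowered from 0 to 2 in siLonp1. Those higher with siLonp1 in HS+REC ranged from 1 to 5 and those lower from 0 to 2, and those with a larger HS change in siLonp1 from 0 to 1. The 5 were reached without HS+REC siLonp1 replicate 3.

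The sign changes were in differences that were not called. With library size only, siLonp1 in Ctrl gave -0.032 for HSPA1B, -0.014 for HSPA13 and -0.059 for HSPA14. Without the filter, siLonp1 in HS gave 0.014 for HSPA2. With pairs summed, siLonp1 in HS gave 0.20 for HSPA6 with HSPA7, and the HS interaction gave -0.020 for HSPA1A with HSPA1B. With each library left out, HS+REC against HS in siLonp1 ranged from -0.019 to 0.33 for HSPA1B and from -0.028 to 0.23 for HSPA1L. The siLonp1 difference in Ctrl ranged from -0.27 to 0.16 for HSPA6 and from -0.00014 to 0.025 for HSPA14, and in HS from -0.050 to 0.051 for HSPA2 and from -0.22 to 0.0085 for HSPA7. In HS+REC it ranged from -0.19 to 0.057 for HSPA1A, from -0.23 to 0.11 for HSPA1B and from -0.064 to 0.021 for HSPA14. The arms' difference in HS+REC against HS ranged from -0.18 to 0.34 for HSPA6 and from -0.19 to 0.015 for HSPA13. Levels per length by coding length were not run, because no protein table was used here.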
